A study of Mus musculus with 6 samples.

Results

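The dystrophin glycoprotein complex is the assembly that ties the cytoskeleton of a muscle fiber to the extracellular matrix. It was followed here through 8 genes, Dmd, Utrn, Dag1, Sgca, Sgcb, Sgcd, Dtna and Sspn, which were taken by symbol from the 24411 genes of the count table, and 8 of 8 were measured and passed the filter on low counts. None of the 8 passed the test across all genes between WT and LSD1-mKO Sol muscle after VWR, and the 95% intervals of their fold changes lay between 0.796 and 1.34. Dmd had the highest fold change, 1.14 (95% interval 0.981 to 1.34).

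Polyadenylated RNA was sequenced from the Sol (soleus) muscle, a slow-twitch muscle of the lower leg, of 3 WT and 3 LSD1-mKO C57BL/6 mice, with 1 library per mouse. LSD1-mKO mice carried floxed Lsd1 alleles (Kdm1a, the gene for the lysine demethylase LSD1) and a CreERT2 recombinase driven by the human ACTA1 promoter, which is active in differentiating and differentiated muscle cells, so that the other cells of the muscle kept the gene. WT mice carried floxed Lsd1 without CreERT2. Mice of both genotypes were 8 weeks old at the start, were kept with a running wheel for 38 days (voluntary wheel running, VWR), and were given tamoxifen on 5 consecutive days, at a dose of 75 mg/kg, once 3 days of getting used to the wheel had passed. Sedentary mice were not analysed here, so the comparison was of genotype among running mice.

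In the sarcolemma, dystrophin binds actin filaments on its inner side and dystroglycan in the membrane, and dystroglycan binds laminin in the basement membrane. The sarcoglycans and sarcospan form a subcomplex that steadies this link, and dystrobrevin and the syntrophins dock signaling proteins to it. Loss of dystrophin or of a sarcoglycan makes the membrane fragile during contraction and causes muscular dystrophy. Utrophin, the autosomal relative of dystrophin, is concentrated at the neuromuscular junction in adult fibers, is also made by blood vessels, and spreads along the fiber surface when dystrophin is missing.

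Kdm1a, the deleted gene, was measured at 40.5, 38.2 and 33.6 TMM CPM (counts scaled to a common library size, CPM, after the trimmed mean of M-values normalization) in WT replicates 1 to 3 and at 14.6, 16.6 and 16.6 in LSD1-mKO replicates 1 to 3. Every LSD1-mKO mouse was below every WT mouse, with a log2 fold change of -1.23 (SE 0.11; edgeR quasi-likelihood test, Benjamini-Hochberg adjusted p = 0.0160). Without WT replicate 2 or any 1 of the LSD1-mKO mice, the adjusted p of Kdm1a in edgeR rose to between 0.111 and 0.209. Libraries held 8940206 to 13798059 estimated counts, and 2 of 12828 genes tested passed an adjusted p of 0.05 (0.0156%).

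Dmd, on the X chromosome (GRCm38, chrX:82948870-85206141, plus strand), has several starts, and 1 row of the count table covers them. In GENCODE vM21 its longest protein-coding transcript has 79 exons and 14910 bases and encodes full-length dystrophin. A second protein-coding transcript starts inside the gene, at base 85048413, and has 18 exons and 4438 bases (29.8% of the longest). It encodes a short dystrophin without the actin-binding amino end. The gene-level count could not separate them. The 250 bases before the upstream and the internal start listed by RefSeq (GRCm38.p6, plus strand) are shown as a description of the 2 starts. The internal RefSeq window ends at base 85048294, upstream of the GENCODE start at base 85048413 and not directly before it. Capitals mark matches, on either strand, to the E-box CANNTG (bound by the myogenic factors), the CArG box (bound by serum response factor) and the MEF2 motif.
Dmd upstream start, chrX:82948620-82948869: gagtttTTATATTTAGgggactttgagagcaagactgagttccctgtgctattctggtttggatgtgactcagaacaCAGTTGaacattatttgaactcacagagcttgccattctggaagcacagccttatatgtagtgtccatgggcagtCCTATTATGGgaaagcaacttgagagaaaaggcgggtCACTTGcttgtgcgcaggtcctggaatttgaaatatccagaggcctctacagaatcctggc
Dmd internal start, chrX:85048045-85048294: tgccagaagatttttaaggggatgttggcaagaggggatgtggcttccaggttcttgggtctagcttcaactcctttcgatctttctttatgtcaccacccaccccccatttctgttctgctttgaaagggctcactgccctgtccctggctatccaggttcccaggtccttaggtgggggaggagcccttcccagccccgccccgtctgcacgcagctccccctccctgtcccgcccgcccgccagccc
The upstream sequence held 2 E-boxes, 1 CArG box and 1 MEF2 match at 45.2% GC, and the internal sequence held none of these and had 60% GC. Of the 32851 RefSeq windows of the same length, 66.2% held an E-box, 1.47% a CArG box and 2.92% a MEF2 match, and the median GC was 52.4%. RefSeq windows were found for 7 of the 8 genes (10 windows), and the E-box count ran from 0 to 7 a window. A nuclear receptor half-site (AAGGTCA) or its longer form TCAAGGTCA, the letters read by estrogen-related receptors, was in none of the 10, against 4.08% and 0.387% of all windows. A match or its absence is a description of these letters only.

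Dmd was measured at 195, 163 and 178 TMM CPM in WT replicates 1 to 3 and at 193, 201 and 218 TMM CPM in LSD1-mKO replicates 1 to 3. The groups overlapped, since WT replicate 1 stood just above LSD1-mKO replicate 1, while WT replicates 2 and 3 were below every LSD1-mKO mouse. The means were 178 ± 16.1 and 204 ± 12.9 TMM CPM (SD, n = 3 each). The log2 fold change was 0.20 (SE 0.097; 95% interval -0.028 to 0.42; edgeR quasi-likelihood test, unadjusted p = 0.0786, Benjamini-Hochberg adjusted p = 0.766). An exact two-sided permutation test over the 10 splits of the 6 mice, which cannot give a p under 0.1, gave p = 0.2.

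Utrn (chr10:12382188-12869365, minus strand) stood at 65.9, 88.3 and 95.1 TMM CPM in the WT mice and at 89.0, 75.2 and 90.9 TMM CPM in the LSD1-mKO mice. The LSD1-mKO values lay within the range of the WT values, and WT replicate 1 was the lowest of the 6. The means were 83.1 ± 15.3 and 85.0 ± 8.57 TMM CPM, a log2 fold change of 0.030 (SE 0.14; 95% interval -0.30 to 0.36; edgeR quasi-likelihood test, adjusted p = 0.976; exact permutation p = 0.8). The sign of this value was not stable, being -0.11 without WT replicate 1 and -0.0047 when scaled by library size alone.

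Utrn was also set against Dmd within each mouse, as counts per base of the longest transcript, which needs no scaling between libraries. For every 100 of Dmd there were 40.8, 65.4 and 64.5 of Utrn in the WT mice and 55.4, 45.2 and 50.1 in the LSD1-mKO mice. The level of this ratio rests on the transcript chosen. The mean over all mice was 15.1 TPM for Utrn and 28.4 TPM for Dmd with the longest transcript. With the transcript of median length it was 39.2 TPM for Utrn and 49.3 TPM for Dmd. Utrn was below Dmd in 6 of 6 mice, and WT replicate 1 had the lowest ratio while the other WT mice had the highest. The log2 ratio was lower by 0.15 in LSD1-mKO (fold 0.900; exact two-sided permutation p = 0.6), and the difference in log2 ratio ran from -0.38 without WT replicate 1 to -0.035 without WT replicate 2.

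**Figure D1:**
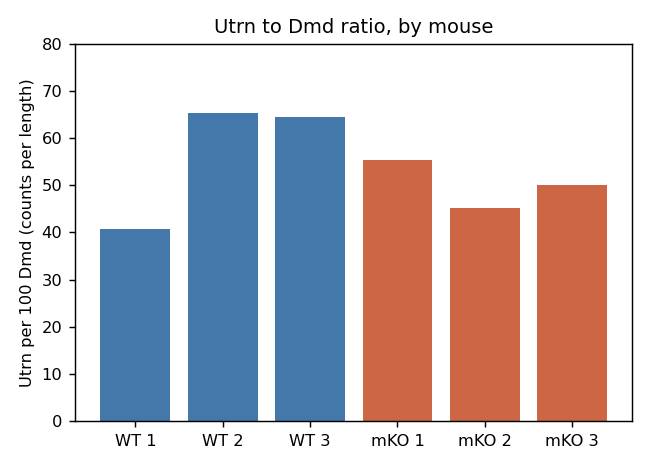
Utrn per 100 Dmd, both as counts per base of the longest transcript (vertical axis, from 0), with 1 bar per mouse, WT in blue and LSD1-mKO (mKO) in red. WT replicate 1 is lowest at 40.8, the other WT mice are highest at 65.4 and 64.5, and the LSD1-mKO mice lie between at 45.2 to 55.4.

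Dag1 (chr9:108204634-108263958, minus strand) encodes dystroglycan, the laminin receptor that is cut into an outer and a membrane-spanning subunit. It was measured at 323, 334 and 388 TMM CPM in the WT mice and at 404, 307 and 354 TMM CPM in the LSD1-mKO mice. The lowest and the highest mouse were both LSD1-mKO. The means were 348 ± 34.5 and 355 ± 48.5 TMM CPM, with a log2 fold change of 0.027 (SE 0.12; 95% interval -0.26 to 0.31; edgeR quasi-likelihood test, adjusted p = 0.974; exact permutation p = 0.8).

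The 3 sarcoglycans are single-pass membrane proteins in which inherited defects cause limb-girdle muscular dystrophy. Sgca (alpha-sarcoglycan, chr11:94962791-94976327, minus strand), which is made in striated muscle, was at 180, 143 and 145 TMM CPM in WT and at 161, 173 and 157 TMM CPM in LSD1-mKO. WT replicate 1 was the highest mouse and the other WT mice the lowest, so that the LSD1-mKO mice lay between them. The log2 fold change was 0.070 (SE 0.11; 95% interval -0.18 to 0.32; edgeR quasi-likelihood test, adjusted p = 0.921; exact permutation p = 0.6).

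Sgcb (beta-sarcoglycan, chr5:73632749-73647790, minus strand) was at 138, 118 and 123 TMM CPM in WT and at 133, 133 and 139 TMM CPM in LSD1-mKO. It varied least of the 8 genes, its highest mouse being 1.18 times its lowest, and WT replicate 1 again fell among the LSD1-mKO mice. The log2 fold change was 0.097 (SE 0.088; 95% interval -0.11 to 0.30; edgeR quasi-likelihood test, adjusted p = 0.865; exact permutation p = 0.3). Sgcd (delta-sarcoglycan, chr11:46896253-47988969, minus strand), which smooth muscle also makes, was at 22.4, 25.1 and 31.6 TMM CPM in WT and at 26.4, 23.5 and 30.6 TMM CPM in LSD1-mKO. The lowest and the highest mouse were both WT. The log2 fold change was 0.017 (SE 0.15; 95% interval -0.33 to 0.36; edgeR quasi-likelihood test, adjusted p = 0.984; exact permutation p = 0.8), and it was -0.012 when scaled by library size alone.

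Dtna (alpha-dystrobrevin, chr18:23415135-23659715, plus strand) encodes a dystrophin relative that binds dystrophin and the syntrophins. It was at 100.1, 82.4 and 103 TMM CPM in WT and at 99.7, 104 and 94.2 TMM CPM in LSD1-mKO, so that WT replicate 2 alone stood below the rest. The log2 fold change was 0.062 (SE 0.10; 95% interval -0.17 to 0.30; edgeR quasi-likelihood test, adjusted p = 0.929; exact permutation p = 0.7) and -0.030 without WT replicate 2. Sspn (sarcospan, chr6:145931641-145965223, plus strand) encodes a small protein that crosses the membrane several times beside the sarcoglycans. It was at 201, 199 and 184 TMM CPM in WT and at 184, 224 and 212 TMM CPM in LSD1-mKO. LSD1-mKO replicate 1 lay at the bottom of the range with WT replicate 3, and the other LSD1-mKO mice were above every WT mouse. The log2 fold change was 0.089 (SE 0.098; 95% interval -0.14 to 0.31; edgeR quasi-likelihood test, adjusted p = 0.888; exact permutation p = 0.4). Dtna and Sspn each overlap an antisense gene on the opposite strand, by 90 and 69 exonic bases. The strand setting of the counting is not given in the sources used here, so reads from those stretches could not be assigned to a strand.

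**Figure D2:**
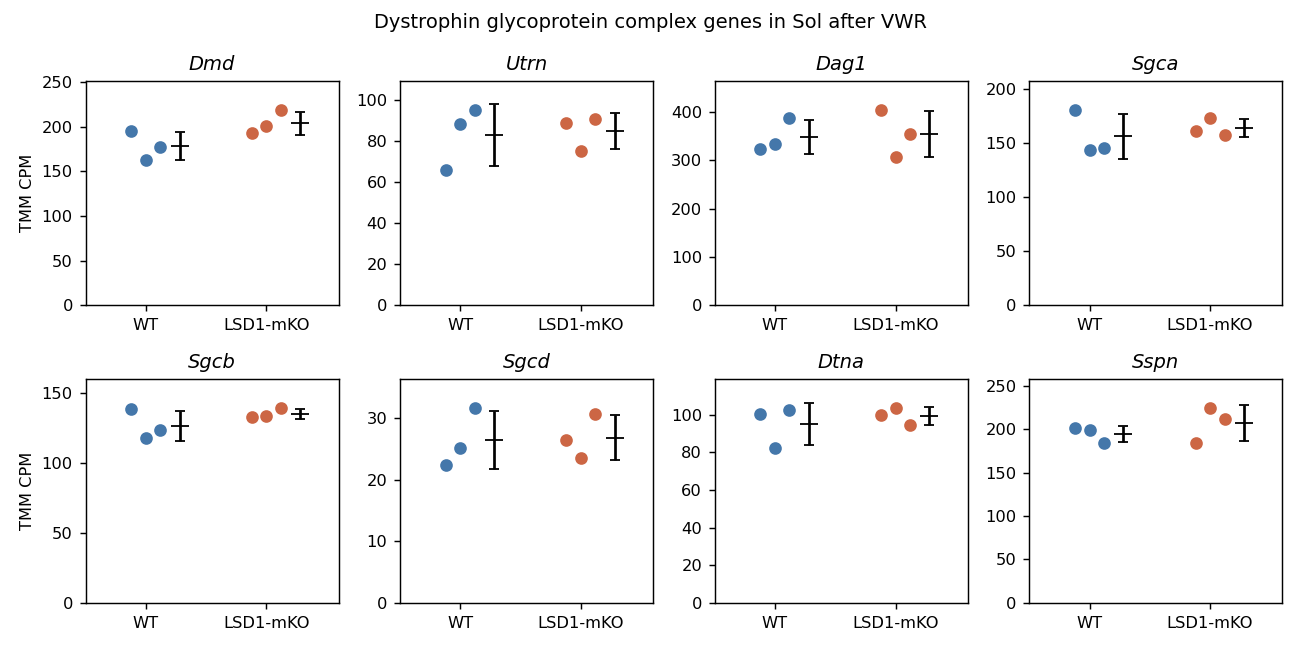
TMM CPM (vertical axis, from 0, a scale for each gene) of the 8 genes in 3 WT mice (blue) and 3 LSD1-mKO mice (red), replicates 1 to 3 from left to right, with black marks for the mean ± SD. The groups overlap in every panel, and in Dmd 1 WT mouse, replicate 1 at 195, reaches the LSD1-mKO range of 193 to 218.

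Over the 8 genes, 0 passed the adjusted p of 0.05 in the edgeR quasi-likelihood test, against 0.0156% of all genes tested. None passed it in DESeq2 (0.327% of all genes) or in limma voom (0.0234%), and 0 had an unadjusted p under 0.05 in edgeR (6.40% of all genes, and 3.52% in the higher direction). None had groups without overlap on TMM CPM, against 12.7% of all genes. The fitted level was higher in LSD1-mKO for 8 of 8 genes, against 45.2% of all genes tested, but that of Utrn and Sgcd turned lower when scaled by library size alone, and that of Utrn, Dag1, Sgcd and Dtna turned lower on leaving out single mice. The median log2 fold change was 0.066, beside -0.020 over all genes tested. A p that missed the threshold did not show equal levels, and the intervals above give the sizes of difference that these 3 mice a group leave.

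Whether Dmd and Sgcb overlapped depended on the scale. In TPM, where counts are divided by transcript length and then scaled to the same total in each library, Dmd was at 26.7, 25.9 and 26.8 TPM in WT and at 28.4, 29.8 and 32.5 TPM in LSD1-mKO, with no overlap (exact two-sided permutation p = 0.1, the smallest possible). Sgcb was at 74.7, 74.0 and 73.4 TPM in WT and at 77.0, 77.9 and 81.6 TPM in LSD1-mKO, also with no overlap. On these scales 2 of 8 genes did not overlap in TPM (11.5% of all genes) or in CPM by library size alone (11.8%), and 0 of 8 did not overlap on TMM CPM or with DESeq2 size factors (12.6%). The change came from WT replicate 1, which had the lowest TMM factor (0.929, with 0.978 to 1.07 in the other libraries) and therefore higher values on the TMM scale. The 8 genes summed to 585, 615 and 619 TPM in WT and to 630, 630 and 636 TPM in LSD1-mKO. As TMM CPM per kilobase the sums were 286, 259 and 275 in WT and 287, 285 and 287 in LSD1-mKO, and WT replicate 1 then fell among the LSD1-mKO mice.

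Per length, Sgca was the most abundant of the 8 genes, at 189 to 222 TPM over the 6 mice. Dag1 followed at 117 to 156 TPM, Sspn at 89.6 to 110 TPM and Sgcb at 73.4 to 81.6 TPM. These 4 did not overlap each other. Dtna (31.1 to 36.7 TPM) and Dmd (25.9 to 32.5 TPM) overlapped in range, though Dtna was above Dmd in 6 of 6 mice. Dmd and Sgcd (18.7 to 29.1 TPM) also overlapped, with Dmd higher in 5 of 6 mice, and Utrn was lowest at 10.9 to 17.3 TPM. These levels were divided by the longest protein-coding transcript. Divided by the transcript of median length, the order of Sgcb and Dtna and that of Sgcd and Utrn were each turned in 6 of 6 mice. The mean of Dtna (69.6 TPM) was then above that of Sspn (51.9 TPM), and the mean of Dmd (49.3 TPM) above that of Sgcb (39.6 TPM), so the order below Sgca and Dag1 rests on the transcript chosen.

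**Figure D3:**
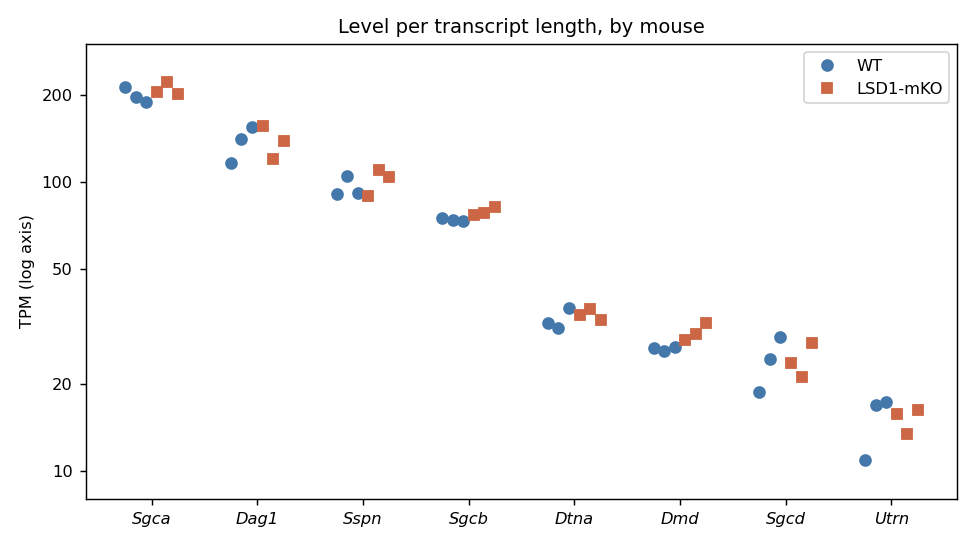
TPM of the 8 genes (vertical axis, log scale) in each mouse, WT as blue circles and LSD1-mKO as red squares, replicates 1 to 3 from left to right, ordered by level. Levels run from Sgca at 189 to 222 down to Utrn at 10.9 to 17.3, and the genotypes lie together within each gene.

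The 8 genes did not vary together. WT replicate 1 and LSD1-mKO replicate 2 were the 2 lowest mice for 3 of the 8, Utrn, Dag1 and Sgcd. The same 2 mice were the lowest for the summed markers of fibroblasts (974 and 1143 TMM CPM, with 1245 to 3137 in the other mice), of immune cells (24.0 and 29.1, with 40.0 to 103) and of endothelial cells (455 and 484, with 498 to 665). They were also the lowest for the smooth muscle and pericyte markers (524 and 573, with 580 to 636). The genes of that list did not go together in WT replicate 1. Its Rgs5 (171) and Pdgfrb (48.6) were the lowest of the mice, while its Myh11 (117) and Tagln (80.7) were the highest. Its Acta2 (104) and Cnn1 (3.25) were the second highest. WT replicate 1 and LSD1-mKO replicate 2 were not the 2 lowest for the Schwann, adipocyte or red blood cell markers. LSD1-mKO replicate 2 was the highest mouse for the Schwann (178) and adipocyte (55.8) markers. WT replicate 1 was also the highest mouse for the summed markers of muscle fibers (116681 TMM CPM, with 88555 to 102358 in the others) and for Sgca. WT replicate 2 was lowest for 4 of the 8, Dmd, Sgca, Sgcb and Dtna, and was also the lowest for the muscle fiber markers. LSD1-mKO replicate 2 was the second lowest for the muscle fiber markers (93549). That mouse was the highest for Dtna (104) and was above the mean of all mice in log2 TMM CPM for Dmd, Sgca and Sgcb. These marker sums overlapped between the genotypes, and their part in the values of the 8 genes was not tested. In whole muscle, fewer cells of a type and less RNA per cell cannot be told apart.

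**Figure D4:**
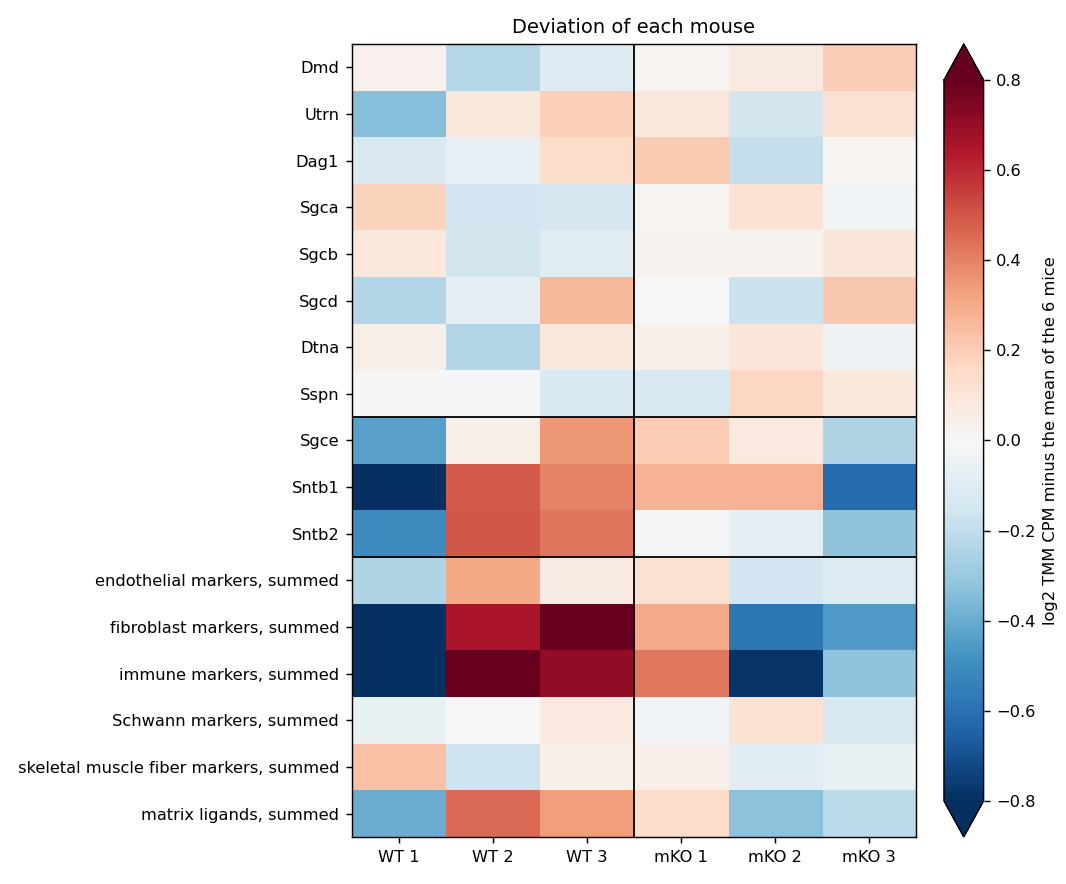
Deviation of each mouse (columns) from the mean of the 6 mice in log2 TMM CPM (color, with values past 0.8 in either direction shown at the end of the scale) for the 8 genes, 3 partner genes and 6 summed gene lists (rows), WT left of the line. Utrn, Dag1 and Sgcd are blue in WT replicate 1 and LSD1-mKO replicate 2, as are the summed fibroblast, immune and endothelial markers and the matrix ligands. Those summed rows are also blue in LSD1-mKO replicate 3, where Utrn (0.12) and Sgcd (0.22) are red. They are red in WT replicate 2, where Dag1 (-0.066) and Sgcd (-0.071) are pale blue.

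The genes whose profile over the 6 mice was nearest to Dmd, by the root mean square difference in log2 TMM CPM after centring among 10080 genes, were Ccser2 (0.015), Phtf2 (0.019) and Fundc2 (0.023). Those nearest to Utrn were Dock1 (0.038), Nfat5 (0.040) and Atp1b2 (0.042). With only 6 mice, such closeness is a description.

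Around the 8 genes, 16 of 21 intracellular and membrane partners were tested. Of these, 5 were higher and 11 lower (31.2% higher, beside 45.2% of all genes tested). The edgeR test called 0 (0.0156% of all genes), and 1 had an unadjusted p under 0.05 (6.40% of all genes). The median log2 fold change was -0.064 (0.038 without WT replicate 1). Sgce, the epsilon-sarcoglycan found in many tissues, was at 12.0 ± 3.16 TMM CPM in WT and 12.1 ± 1.85 in LSD1-mKO. The values of Sntb1 (log2 fold change -0.11), Sntb2 (-0.35) and Dtnb (-0.19), at 10.4 TMM CPM or less in every mouse, had wide intervals that held 0. Nos1, the nitric oxide synthase that syntrophin and dystrophin hold at the membrane, was at 23.6 ± 2.22 and 28 ± 3.19 TMM CPM (log2 fold change 0.25; edgeR quasi-likelihood test, adjusted p = 0.766). Sync (syncoilin, an intermediate filament protein that binds dystrobrevin) had the lowest p of the higher partners, at 40.8 ± 0.704 and 49.5 ± 3.29 TMM CPM (log2 fold change 0.28; unadjusted p = 0.0109, adjusted p = 0.619, edgeR). Cav3 (caveolin of the muscle membrane) had the lowest p of the lower partners, at 79.6 ± 1.26 and 68.5 ± 8.73 TMM CPM (log2 fold change -0.22; adjusted p = 0.766, edgeR). The groups of Sync and of Cav3 did not overlap, which made 2 of 16 partners (12.5%, beside 12.7% of all genes).

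**Figure D5:**
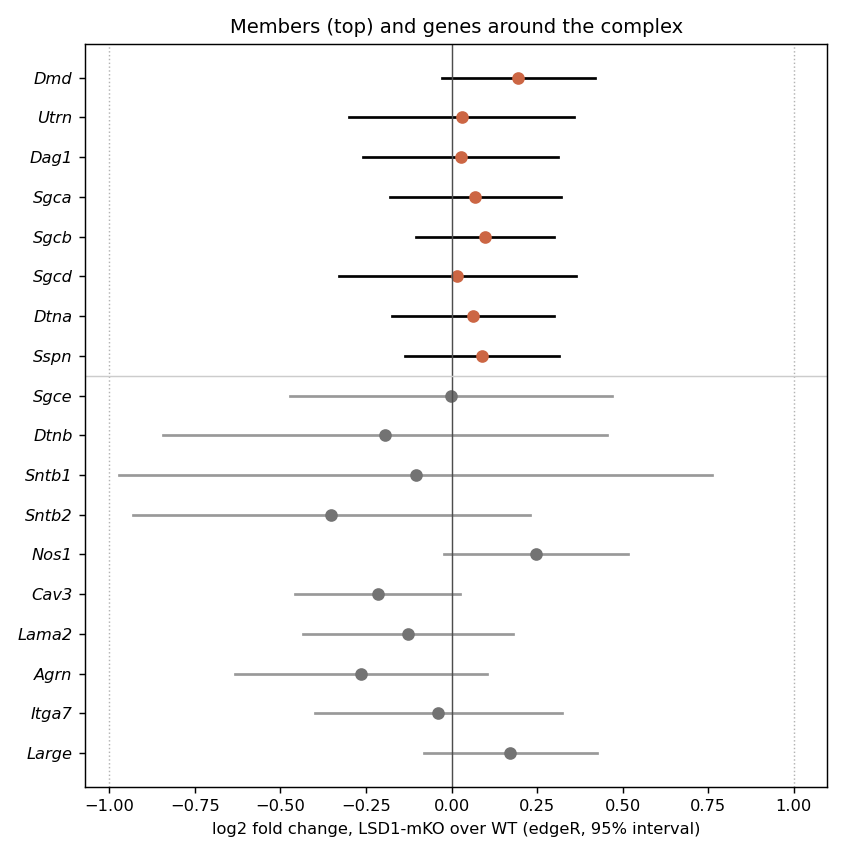
Log2 fold change of LSD1-mKO over WT (horizontal axis) with its 95% interval for the 8 genes (red, above the line) and 10 genes around the complex (gray), and dotted lines at a change of 1 in either direction. The intervals of the 8 genes hold 0 and lie within -0.33 to 0.42, and those of Sntb1, Sntb2 and Dtnb are the widest.

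The 14 matrix ligands were laminin chains and other matrix proteins that dystroglycan and its neighbors meet outside the fiber. Their fitted values were lower in 14 of 14, beside 7027 of the 12828 genes tested. By the edgeR quasi-likelihood test 0 were called (0.0156% of all genes) and 0 had an unadjusted p under 0.05 (6.40%). None had groups without overlap (12.7% of all genes). The lowest log2 fold changes were those of Col6a3 (-0.61), Col6a2 (-0.60), Col6a1 (-0.56) and Bgn (-0.38), named here after their values were seen. The median log2 fold change of the ligands was -0.27, but it ran from -0.49 without WT replicate 1 to -0.069 without WT replicate 2. Their summed level was 1260, 2273 and 2097 TMM CPM in WT and 1838, 1324 and 1440 in LSD1-mKO, and was lowest in WT replicate 1 and LSD1-mKO replicate 2, as the fibroblast markers were. Whether the fibroblast share had a part in it was not tested. Lama2, the laminin chain of the muscle basement membrane, was at 113 ± 11.6 and 104 ± 17.4 TMM CPM, and Agrn (agrin) was at 37.4 ± 8.78 and 31.2 ± 2.52 TMM CPM.

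The sugar chain by which dystroglycan binds laminin is built by a series of enzymes. Of 18 genes listed for dystroglycan glycosylation, not all of which build the chain itself, 17 were tested. The fitted level was higher for 8 and lower for 9 (47.1% higher, beside 45.2% of all genes tested). The edgeR test called 0 (0.0156% of all genes), and 0 had an unadjusted p under 0.05 (6.40% of all genes). The median log2 fold change was -0.015 (0.071 without WT replicate 1). The groups of 3 of the 17 did not overlap (17.6%, beside 12.7% of all genes), Dpm2, Gmppb and Pomgnt2, the last 2 named here after their values were seen. Large, whose product extends the chain, was at 56.2 ± 5.28 and 63.3 ± 6.78 TMM CPM (log2 fold change 0.17; adjusted p = 0.781, edgeR). Dpm2 had the lowest p of the lower genes (log2 fold change -0.28; adjusted p = 0.777, edgeR). The other laminin receptor of muscle, the integrin, and its adhesion complex were followed through 14 genes. Of these, 2 were higher and 12 lower (14.3% higher, beside 45.2% of all genes tested). The edgeR test called 0 of the 14 (0.0156% of all genes), and 1 had an unadjusted p under 0.05 (6.40% of all genes). The median log2 fold change of these genes was -0.056 (-0.015 without LSD1-mKO replicate 2). Itga7, the laminin-binding integrin chain of muscle, was at 156 ± 14.2 and 152 ± 34.5 TMM CPM. Zyx (zyxin) was at 40.0 ± 2.06 and 33.0 ± 2.56 TMM CPM (log2 fold change -0.28; unadjusted p = 0.0179, adjusted p = 0.680, edgeR), and Fermt2 (kindlin, an integrin activator) was at 252 ± 11.4 and 281 ± 2.73 TMM CPM (log2 fold change 0.16; adjusted p = 0.766). The groups of Zyx and of Fermt2 did not overlap, which made 2 of 14 genes (14.3%, beside 12.7% of all genes). DESeq2 and limma voom also called 0 genes in these 4 lists.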

How the data were processed

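Per the labels and the study's methods, the authors sequenced polyadenylated RNA in single-end reads of 75 bases and aligned them to mm10 with STAR. The authors deposited estimated counts per gene, not normalized; the counting tool and annotation are not given in the sources used here. A DESeq2 table of fold changes and p-values between the genotypes was also deposited and was not used. Table columns were assigned to mice by the number in each heading, which is also the leading number of the sample title. Whether the mice came from separate litters is not given, and p-values measure the spread between these mice.

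Estimated counts were rounded and tested with edgeR 4.0.16 in R 4.3.3 (TMM, filterByExpr, quasi-likelihood), with Benjamini-Hochberg adjustment over 12828 genes and a threshold of 0.05. The SE is the log2 fold change over the root of the F statistic. DESeq2 1.42.0, limma 3.58.1 (voom), no filter, library size alone, a replicate block and leaving out each mouse were alternatives. Tests were checked on simulated counts. TPM used the length of the longest coding transcript of each gene (GENCODE vM21; 99.7% of counts had a length). No 75-base stretch of these transcripts occurs in another gene, except 16 of Dtna.

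The 8 genes and all lists were chosen with earlier results of these data known. From each list, genes called, or else the gene with the lowest p in each direction, were named, with some partners, ligands and enzymes taken whatever their values. A few genes that this rule names are not reported here. For Dmd and Utrn the 3 nearest profiles were named.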

Additional observations from a re-analysis of the deposited data

How the results depend on the processing

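Over 14 alternatives for each of the 8 genes, 100 of 112 fitted values kept their direction and 12 turned (Utrn, Dag1, Sgcd and Dtna, 10 of them on leaving out a mouse). None passed the threshold, and the lowest adjusted p was 0.274 (edgeR, Dmd without WT replicate 1). With library size alone the log2 fold change was -0.0047 for Utrn and -0.012 for Sgcd. Leaving out each mouse in turn gave -0.11 to 0.14 for Utrn, -0.075 to 0.13 for Dag1, -0.084 to 0.17 for Sgcd and -0.030 to 0.12 for Dtna. In edgeR, 1 of these genes had an unadjusted p under 0.05 with library size alone (Dmd, adjusted p = 0.824), and 0 to 1 did on leaving out a mouse (Dmd without WT replicate 1, log2 fold change 0.27). The number without overlap was 2 in TPM and 2 in CPM by library size, alternatives chosen after seeing the data. With the transcript of median length, the mean TPM was 49.3 for Dmd, 39.2 for Utrn, 95.03 for Dag1, 128 for Sgca, 39.6 for Sgcb, 18.9 for Sgcd, 69.6 for Dtna and 51.9 for Sspn. Over all genes, edgeR called 1 higher and 1 lower, DESeq2 33 and 9, limma voom 2 and 1, and edgeR without a low-count filter 8 and 3. Leaving out a mouse gave 1 to 2 higher (2 without WT replicate 1) and 0 to 1 lower (0 without WT replicate 2 or any LSD1-mKO mouse). Mice with the same replicate number did not deviate alike (correlations of same-numbered deviations -0.36, -0.097 and -0.15). These values cannot tell whether such mice shared a litter or a preparation. With the number as a replicate block 0 genes were lower, Kdm1a having an adjusted p of 0.299 (edgeR). Kdm1a also missed the threshold without WT replicate 2 or any 1 LSD1-mKO mouse, its log2 fold change in those fits running from -1.26 to -1.17. The cause of these shifts was not tested.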

Other observations

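The neuromuscular junction, where utrophin is concentrated, was followed through 10 genes, of which 9 were tested, with 5 higher, 4 lower and 0 called (edgeR quasi-likelihood test; 1 with an unadjusted p under 0.05, beside 6.40% of all genes tested; 1 called by DESeq2, beside 0.327% of all genes, and 0 by limma voom; median log2 fold change 0.063). Of the 9, 55.6% were higher, beside 45.2% of all genes tested. Colq, the collagen tail that anchors acetylcholinesterase at the junction, was at 12.9, 15.1 and 11.4 TMM CPM in WT and at 28.04, 19.2 and 22.0 TMM CPM in LSD1-mKO. The groups of Colq did not overlap, which made 1 of 9 genes (11.1%, beside 12.7% of all genes). The log2 fold change of Colq was 0.81 (95% interval 0.42 to 1.20; unadjusted p = 0.00129, adjusted p = 0.351, edgeR), which did not pass the threshold, while the adjusted p was 0.0312 in DESeq2 and 0.445 in limma voom. Chrne, the adult subunit of the acetylcholine receptor, was at 7.001 ± 1.48 and 5.78 ± 0.661 TMM CPM (SD, n = 3 each). Loss of the dystrophin link leads to fiber damage and regeneration, and of 13 genes of those processes tested, 4 were higher, 9 lower and 0 called by edgeR, DESeq2 or limma voom (1 with an unadjusted p under 0.05 in edgeR, beside the same 6.40%; median log2 fold change -0.27). Of the 13, 30.8% were higher, beside 45.2% of all genes tested. How far single mice moved the medians of the junction list and of this list was not tested. Dysf, the membrane repair protein dysferlin, was at 61.0 ± 4.25 and 50.4 ± 6.33 TMM CPM (log2 fold change -0.28; unadjusted p = 0.0367, adjusted p = 0.742, edgeR), and the groups overlapped. Spp1 (osteopontin) was at 3.92, 12.8 and 4.00 TMM CPM in the LSD1-mKO mice, of which 1 was high, and at 3.33 to 5.77 TMM CPM in WT.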
